A study of Camelus dromedarius with 4 samples.

Results

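Integrins, the metalloproteases that cut the extracellular matrix and the inhibitors of these proteases were examined in the supraoptic nucleus of the dromedary camel in winter and in summer. The genes were taken by symbol from the table of season means, as every symbol that begins with ITGA, ITGB or ADAMTS, or with MMP or TIMP and a number. Of 78 such symbols, 72 had a mean in both seasons, out of 16053 symbols of the whole table. The 6 symbols listed without a mean were ITGAD, MMP1, MMP3, MMP8, MMP28 and TIMP4. The rule used names only, and no measured value.

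Integrins are pairs of an alpha and a beta subunit that span the cell membrane and tie the matrix, or a counter-receptor on another cell, to the cytoskeleton. Matrix metalloproteases (MMPs) and ADAMTS proteases are zinc enzymes that cut collagens, laminins and proteoglycans, and tissue inhibitors of metalloproteases (TIMPs) block them. The supraoptic nucleus houses the magnocellular neurons that make vasopressin and oxytocin, and is known for reversible changes in how glia cover those neurons when an animal is dehydrated or lactating.

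The tissue came from healthy, hydrated adult male dromedaries of the Tergui breed, matched for age, with no treatment other than the season. There were 2 winter libraries from animals slaughtered at El Oued and 2 summer libraries from animals slaughtered at Ouargla, so season, place and day of slaughter cannot be told apart. Stranded total RNA depleted of ribosomal RNA was sequenced. The comparison asks which of these transcripts differ between the seasons. Between 4379162 and 6902037 reads per library were counted on gene models, or 20.7% to 27.8% of the reads tallied. Summer replicate 2, with 5520242 counted reads, had a read on 40178 of the 64989 gene models. The other libraries had a read on 49320 to 52456. The listed vasopressin gene (PUTATIVE_AVP) had the 5th highest mean of the table in summer and the 97th in winter, and OXT had means of 592 in summer and 621 in winter, so both defining transcripts of the nucleus were present.

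Each season mean is the average of 2 libraries after division by a size factor, which corrects for depth. The means were solved for the whole reads behind them, which gave a single answer for 49 of the 72 genes (68.1%, against 61.7% of all symbols). The libraries obtained in this way are called winter library A, winter library B, summer library A and summer library B, because the labels do not tie them to replicate numbers. One read was worth 0.755, 1.06, 1.08 and 1.14 normalised counts in these libraries, in that order, and all values per library below are normalised counts unless reads are named. Gene lengths were not used, so levels are compared within a gene and not between genes.

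The summer libraries stood further apart from each other than the winter libraries did. Summer library A held no read for 14.9% of the 9899 symbols with a single solution, against 2.64% to 3.58% in the other libraries. Among the 49 genes of interest, it held no read for 9, against 1, 1 and 2 in winter library A, winter library B and summer library B. The median absolute log2 difference between the summer libraries (5 added to each value) was 0.91 for the 37 genes tested and 0.57 for all 7658 genes tested. Between the winter libraries it was 0.40 and 0.38. Values without each library are given where a direction or a call turned on it.

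Most of the genes differed little in the season means. Of the 60 with a season mean of 10 or more, called expressed here, 41 lay within 1.5-fold of equality, 20 had the higher mean in winter and 40 in summer. The median log2 ratio of winter to summer was -0.24, against -0.04 over 13808 symbols of the table, of which 46.2% were higher in winter against 33.3% of these genes. More than 2-fold higher in summer were 6 of the 60 genes (ITGA2, ITGAX, MMP7, MMP13, MMP20 and MMP25), beside a background of 4.53% of the table. More than 2-fold higher in winter was 1 gene, MMP15, beside a background of 2.72%. ITGAX, MMP7, MMP13, MMP20 and MMP25 reached a mean of 10 in summer only, with winter means of 4.91, 2.94, 4.23, 2.04 and 2.49. MMP15 reached it in winter only, with a summer mean of 8.30. These genes thus entered through the season in which they were high, and the counts are no evidence of an excess. In these bulk libraries, fewer cells of a type and less RNA per cell cannot be told apart.

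**Figure D1:**
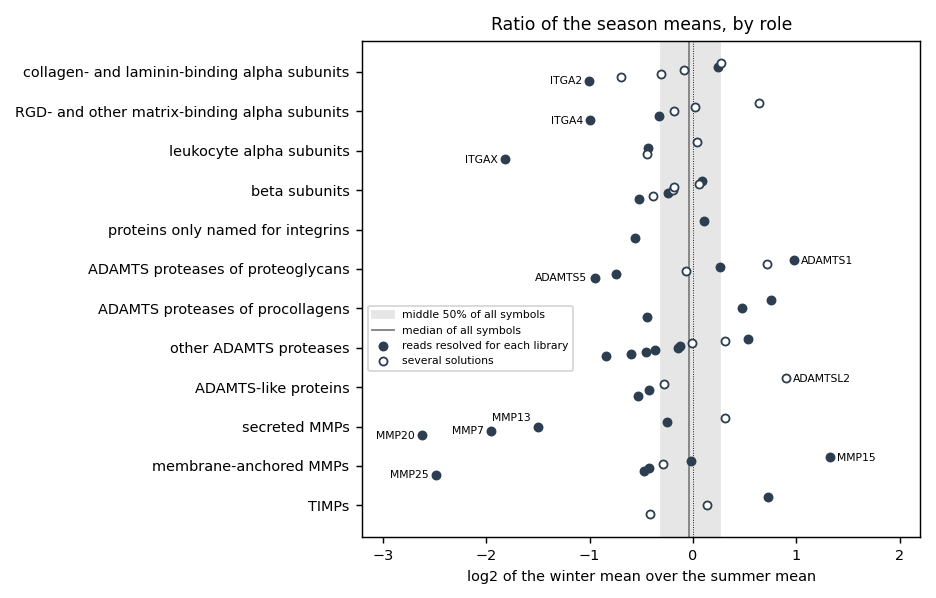
Log2 of the winter mean over the summer mean (horizontal axis) for the 60 genes with a season mean of 10 or more, 1 point per gene, in rows by role; filled points have reads resolved for each library and open points have several solutions. The grey band holds the middle 50% of all symbols and the line marks their median (-0.04), and the points farthest to the summer side are MMP20 and MMP25 while MMP15 lies farthest to the winter side.

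The season difference was tested by edgeR's quasi-likelihood method, using the reads of the 37 genes that had a single solution and a season mean of 10 or more. At the threshold of the study, an unadjusted p under 0.05 and more than 2-fold, 1 of the 37 passed (MMP25, higher in summer), where 1.67% of the 7658 genes tested did. An unadjusted p under 0.05 alone was reached by the same single gene, and by 1.98% of all genes tested. After Benjamini-Hochberg adjustment over all genes tested, 0 of the 37 passed and the background was 0% (0 of 7658), with adjusted p-values from 0.982 to 0.998 for these genes. In DESeq2 and in edgeR's exact test the seasons differed after adjustment for 1 gene of all those tested, and for none of these 37. With 2 libraries a season, an exact permutation test of a single gene cannot give a p below 0.333.

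Both winter values exceeded both summer values in 3 of the 37 genes (ADAMTS8, ADAMTS14 and TIMP1), that is 8.11%, where the background was 13.3%. The opposite order held in 5 (ITGA8, ITGAX, ITGB3, MMP14 and MMP25), that is 13.5%, where the background was 17.2%. Both shares lay near their background.

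Among the 6 expressed alpha subunits that bind collagen or laminin, 2 were higher in winter and 4 in summer, with a median log2 ratio of -0.19. ITGA2, a collagen receptor subunit, had 27.2 and 48.6 normalised counts in winter libraries A and B, and 32.5 and 120 in summer libraries A and B. Its summer mean rested on summer library B, and the seasons overlapped (fitted log2 difference -1.023 ± 0.65 SE, n = 2 libraries a season). ITGA1, which pairs with ITGB1 to bind collagen IV, had means of 226 in winter and 366 in summer. Its winter mean has 3 solutions in whole reads, and in 1 of them the winter pair (224 and 228) lay below the summer pair (291 and 442). ITGA7, a laminin receptor subunit, had means of 634 in winter and 525 in summer. ITGA11, a receptor subunit for fibrillar collagen, had 18.1 and 14.8 in winter and 11.9 and 15.96 in summer, with overlapping ranges.

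Of the 5 expressed alpha subunits that bind fibronectin, vitronectin and related ligands, 2 were higher in winter and 3 in summer (median log2 ratio -0.19). ITGA5, the subunit of the main fibronectin receptor, had means of 160 in winter and 103 in summer. In 1 of its 2 solutions the winter libraries (166 and 153) lay above the summer libraries (150 and 55.9), and in the other solution they straddled them. ITGAV, the partner of several beta subunits in vitronectin and fibronectin receptors, had means of 1530 in winter and 1510 in summer. ITGA4, whose receptors bind fibronectin and VCAM1, had 6.04 and 5.29 in winter and 5.42 and 17.1 in summer. Its 3 lower libraries were alike, and summer library B alone was high (log2 difference -0.95 ± 0.96 SE). ITGA8, a subunit that recognises nephronectin, had 9.06 and 9.52 in winter and 11.9 and 11.4 in summer. The ranges of ITGA8 did not overlap, but the difference was small against its error (-0.33 ± 0.81 SE).

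The 4 alpha subunits found mainly on leukocytes had a median log2 ratio of -0.44, with 1 higher in winter and 3 in summer. ITGAX, the CD11c subunit of myeloid cells, had 4.53 and 5.29 in winter and 14.1 and 20.5 in summer, from 6, 5, 13 and 18 reads. Both summer values exceeded both winter values, at a log2 difference of -1.804 ± 0.85 (SE). Its unadjusted p of 0.0678 in edgeR's quasi-likelihood test missed the threshold. ITGAL, the alpha subunit of the lymphocyte receptor LFA-1, had 94.3 and 110 in winter and 200.6 and 76.4 in summer, so its summer libraries lay on either side of the winter pair. ITGAE, the subunit that binds E-cadherin, had means of 142 in winter and 194 in summer. ITGAM, the CD11b subunit carried by microglia and other myeloid cells, had means of 1194 in winter and 1165 in summer and thus a log2 ratio of 0.04.

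Markers of blood leukocytes and microglia were measured beside these subunits. The 7 blood leukocyte markers with reads (CD2, CD3D, CD3E, ELANE, MPO, PTPRC and S100A8) summed to 146 and 166 in winter and 225 and 188 in summer. Of the 4 of these markers with a season mean of 10 or more, 0 were higher in winter and 4 in summer (median log2 ratio -1.08). The neutrophil marker S100A8 (4.528 and 4.23 in winter, 9.759 and 11.4 in summer) did not overlap between the seasons. Nor did CD3E (36.22 and 34.9 in winter, 66.15 and 64.97 in summer). CD3D, at low counts, had the opposite order (3.773 and 4.23 against 2.169 and 3.419), and PTPRC and CD2 overlapped. Of the other neutrophil markers, MPO was at 0 in winter and had 4 reads in summer library B. ELANE was at 0 in summer and had 6 and 2 reads in winter. The means of the microglia markers summed to 5323 in winter and 7338 in summer, with 2 of 7 markers higher in winter and 5 in summer. C1QB and C1QC, both higher in summer, made up most of these sums and were not resolved by library. The 3 microglia markers with resolved reads (AIF1, CSF1R and TMEM119) summed to 289 and 298 in winter and 281 and 184 in summer. CSF1R (35.3) and AIF1 (86.6, against 89.0 in winter library A) were lowest in summer library B. TMEM119 was lowest in summer library A (56.4, against 61.6 in summer library B). The part of these cells in the values of ITGAX and MMP25 was not tested.

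The beta subunits differed little between the seasons. All 7 with a season mean of 10 or more lay within 1.5-fold of equality, 2 higher in winter and 5 in summer, with a median log2 ratio of -0.20. ITGB3, which pairs with ITGAV and with the platelet subunit ITGA2B, had 46.8 and 40.2 in winter and 49.9 and 75.2 in summer. Its ranges did not overlap, with a log2 difference of -0.52 ± 0.44 (SE). ITGB7, the partner of ITGA4 and ITGAE on lymphocytes, had 128 and 107 in winter and 117 and 105 in summer, with interleaved seasons. ITGB8, which pairs with ITGAV and releases latent TGF-beta, had means of 248 in winter and 325 in summer. ITGB5, another partner of ITGAV, had means of 505 in winter and 485 in summer.

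Of the 2 expressed proteins that carry an integrin name without being subunits, 1 had the higher mean in winter and 1 in summer. ITGBL1, a secreted protein with integrin-like repeats, had 34.0 and 10.6 in winter and 7.59 and 58.1 in summer, so each season held a high and a low library. ITGB1BP1, which binds the tail of the beta 1 subunit, had 29.4 and 47.6 in winter and 29.3 and 42.2 in summer, with the seasons interleaved.

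**Figure D2:**
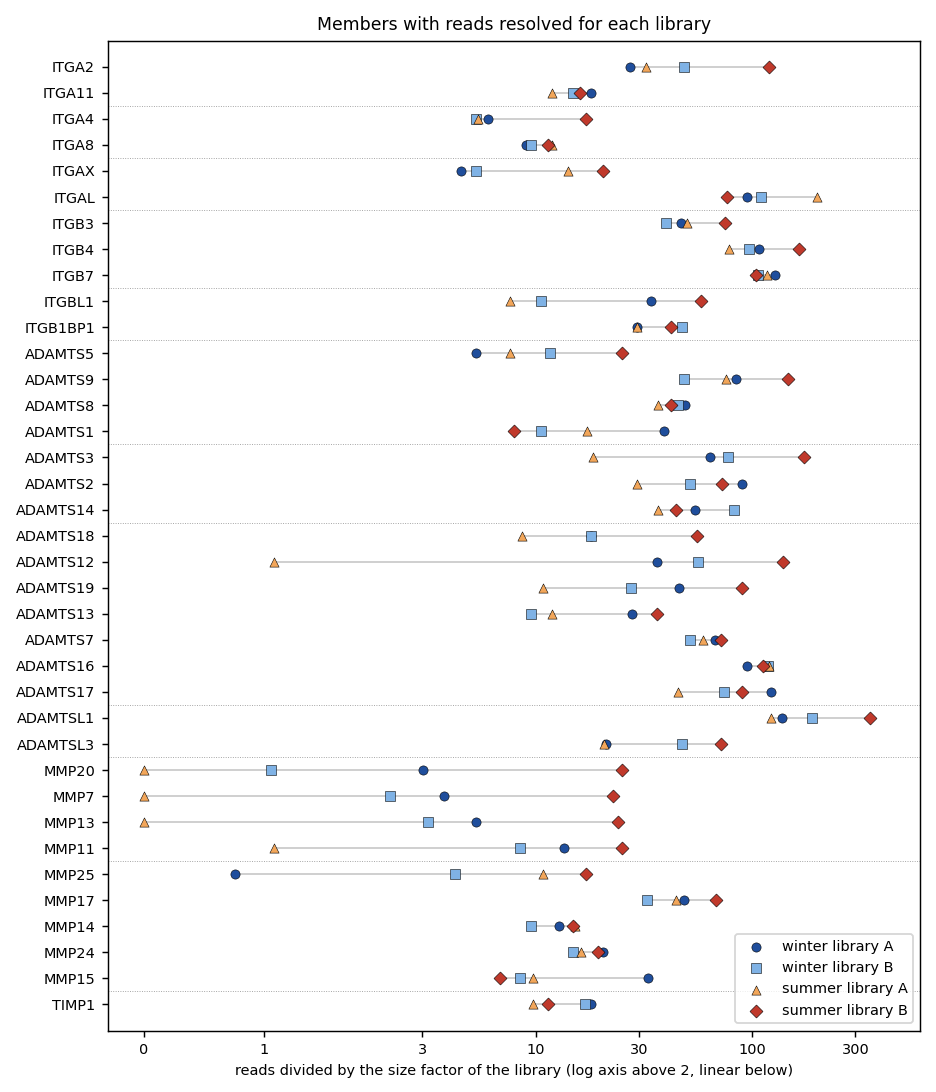
Normalised counts (horizontal axis, logarithmic above 2 and linear below) of the 37 genes tested, in rows by role, with 1 symbol per library and a line over the range. Summer library B (red diamonds) was the highest library in 22 of the 37 genes and summer library A (orange triangles) the lowest in 19.

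ADAMTS proteases that cut proteoglycans of the aggrecan and versican family were split, with 3 of 6 higher in winter and 3 higher in summer (median log2 ratio 0.10). ADAMTS1 had 39.2 and 10.6 in winter and 17.4 and 7.98 in summer. Its high winter mean came from winter library A, and the log2 difference was 1.021 ± 0.86 (SE). ADAMTS4, an aggrecanase, had means of 260 in winter and 158 in summer. In 1 of its 2 solutions the winter pair (257 and 263) lay above the summer pair (181 and 136). ADAMTS8 had 49.0 and 45.5 in winter and 36.9 and 42.2 in summer, which did not overlap but differed by less than the standard error (0.26 ± 0.46 SE). ADAMTS5, the other main aggrecanase, had 5.28 and 11.6 in winter and 7.59 and 25.1 in summer. ADAMTS9 had 84.5 and 48.6 in winter and 75.9 and 147 in summer. For both of these genes the seasons overlapped and summer library B was the highest library (log2 differences -0.99 ± 0.93 and -0.72 ± 0.46 SE).

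ADAMTS2, ADAMTS3 and ADAMTS14 remove the amino-terminal propeptide of fibrillar procollagens, and 2 of the 3 were higher in winter. ADAMTS14 had 54.3 and 82.5 in winter and 36.9 and 44.5 in summer. Both winter values exceeded both summer values, at a log2 difference of 0.74 ± 0.44 (SE). ADAMTS2 had 89.8 and 51.8 in winter and 29.3 and 72.9 in summer, an overlap (0.49 ± 0.54 SE). ADAMTS3 had 64.1 and 77.2 in winter and 18.4 and 174 in summer. The winter libraries of ADAMTS3 were alike and lay between the summer libraries, with a log2 difference of -0.45 ± 0.80 (SE). Markers of fibroblast and meningeal cells, a source of fibrillar collagen, summed to 380 and 325 in winter and 470 and 405 in summer. This sum includes the collagen genes COL1A1, COL1A2 and COL3A1. Of the other markers, DCN (58.1 and 70.9 against 66.2 and 78.7) and PDGFRA (90.6 and 89.9 against 130 and 73.0) overlapped between winter and summer. LUM, at low counts, did not (5.28 and 4.23 against 10.8 and 5.70). The part of these cells in the values of the proteases was not tested.

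Of the 9 remaining ADAMTS proteases, 7 were higher in summer and 2 in winter (median log2 ratio -0.14). ADAMTS12, which cuts cartilage oligomeric matrix protein, had 36.2 and 56.1 in winter and 1.08 and 139 in summer, that is 1 read in summer library A and 122 in summer library B. Both winter libraries lay between the summer libraries, and the log2 difference was -0.61 ± 1.11 (SE). ADAMTS18 had 18.1 and 17.98 in winter and 8.68 and 55.9 in summer, again with the winter pair between the summer pair. ADAMTS17, a protease tied to fibrillin microfibrils, had 122 and 74.0 in winter and 45.5 and 90.05 in summer, with overlapping seasons (0.55 ± 0.46 SE). ADAMTS10, its relative in microfibril assembly, had means of 674 in winter and 542 in summer. ADAMTS13, which cuts von Willebrand factor, had 27.9 and 9.52 in winter and 11.9 and 36.5 in summer, so each season held a high and a low library. ADAMTS7 and ADAMTS16 were even across the 4 libraries, from 51.8 to 71.8 and from 95.1 to 120.

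ADAMTS-like proteins share the matrix-binding modules of the family but have no protease domain. ADAMTSL2, which binds fibrillin microfibrils, had means of 493 in winter and 264 in summer, a log2 ratio of 0.90. In 2 of its 3 solutions both winter values exceeded both summer values (243 and 286). ADAMTSL1 had 138 and 189 in winter and 123 and 351 in summer. ADAMTSL3 had 21.1 and 47.6 in winter and 20.6 and 71.8 in summer. In both genes summer library A was the lowest and summer library B the highest of the 4 libraries.

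The secreted MMPs had mostly low counts. Of 10 secreted MMPs, 5 had a season mean of 10 or more, and 4 of these were higher in summer. MMP2, the gelatinase A that many tissues express constitutively, had means of 543 in winter and 439 in summer. MMP20, which processes enamel proteins, had 4 and 1 winter reads against 0 and 22 summer reads. MMP7, the matrilysin, had 5 and 2 winter reads against 0 and 20 summer reads. MMP13, a collagenase, had 7 and 3 winter reads against 0 and 21 summer reads. In each of these 3 genes the summer reads lay entirely in summer library B. The count of 0 in summer library A cannot be told from the 1, 2 and 3 reads of winter library B. The fitted log2 differences were -2.43 ± 1.48 (SE) for MMP20, -1.83 ± 1.403 for MMP7 and -1.402 ± 1.34 for MMP13. Without summer library A the difference of MMP13 was -2.43, and without summer library B no summer read remained for any of the 3 genes.

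MMP7, MMP20, MMP27, MMP8, MMP1, MMP12 and MMP13 form a cluster in the RefSeq annotation of the dromedary genome, with 1 other gene between MMP1 and MMP12, and 5 of these 7 genes had reads. Their reads summed to 38 and 15 in winter and 0 and 86 in summer, or 28.7 and 15.9 against 0 and 98.0 normalised counts. A count of 0 in summer library A allows up to 3 reads, or 3.25 normalised counts, by counting error only. MMP12, the macrophage elastase, had 11, 8, 0 and 17 reads in winter libraries A and B and summer libraries A and B, and MMP27 had 11, 1, 0 and 6. Thus all 5 genes were at 0 in summer library A, while 4 of them had their highest count in summer library B. The nearest flanking genes did not share this split, with 8, 11, 14 and 7 reads for TMEM123 and 111, 79, 76 and 96 reads for DCUN1D5. Farther out, ANGPTL5 (11, 8, 8 and 36 reads) and DDI1 (4, 2, 3 and 6) were highest in summer library B. YAP1, BIRC3, CASP1 and GRIA4 were not. MMP11, which is not in this cluster, had a like split of 18 and 8 winter reads and 1 and 22 summer reads. Its fitted log2 difference of -0.19 ± 1.09 (SE) became -1.15 without summer library A and 3.24 without summer library B, the latter against a single read.

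Among the 6 expressed membrane-anchored MMPs, 5 were higher in summer and 1 in winter (median log2 ratio -0.36). MMP25, a protease held by a lipid anchor and known from neutrophils, had 0.755 and 4.23 in winter and 10.8 and 17.1 in summer, from 1, 4, 10 and 15 reads. Both summer values exceeded both winter values, at a log2 difference of -2.58 ± 1.09 (SE, n = 2 libraries a season). Its unadjusted p in edgeR's quasi-likelihood test was 0.0431 and its adjusted p 0.982. The mean of MMP25 reached 10 in summer only, so a filter on both seasons left it untested. With a library left out, the log2 difference was -1.69 without winter library A and -4.01 without winter library B. It was -2.85 without summer library A and -2.21 without summer library B. The call was lost with edgeR's exact test (unadjusted p of 0.0566), with DESeq2 (0.13) and with scaling by library totals (0.051 in the quasi-likelihood test). It held narrowly in that test with TMM, RLE and upper quartile scaling (0.0445, 0.0456 and 0.0467). MMP15, a transmembrane MMP, had 33.2 and 8.46 in winter and 9.76 and 6.84 in summer. Winter library A alone was high, and without it the log2 difference dropped from 1.38 ± 0.92 (SE) to 0.02. MMP17, also lipid-anchored, had 48.3 and 32.8 in winter and 44.5 and 68.4 in summer, with overlapping seasons. MMP14, an activator of MMP2, had 12.8 and 9.52 in winter and 15.2 and 14.8 in summer, which did not overlap (-0.40 ± 0.76 SE).

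The 12 genes with lower means in both seasons (ADAMTS15, ADAMTSL5, ITGA2B, ITGA3, ITGB1BP2, ITGB6, MMP9, MMP12, MMP19, MMP23, MMP26 and MMP27) were not tested. MMP9, the gelatinase B of leukocytes, had 1 and 2 winter reads and 0 and 3 summer reads, so a seasonal difference was not detectable at this depth.

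The 3 inhibitors lay within 2-fold of equality, 2 higher in winter and 1 in summer. TIMP1 had 18.1 and 16.9 in winter and 9.76 and 11.4 in summer, from 24, 16, 9 and 10 reads. Both winter values exceeded both summer values, and the log2 difference of 0.73 ± 0.75 (SE) was no larger than its error. TIMP2, which inhibits MMPs and helps MMP14 to activate MMP2, had means of 546 in winter and 498 in summer. TIMP3, the inhibitor that is bound to the matrix and also blocks aggrecanases, had means of 938 in winter and 1251 in summer, a log2 ratio of -0.42. Its reads have 246 solutions, and 10 of them put the winter pair below the summer pair.

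The means of 23 genes, among them ITGB1, ITGB2, ITGA6, ITGA9, MMP2, MMP16 and TIMP2, could be made up of whole reads in more than one way. For 20 of them each solution was tested, and in none of these did any solution reach an unadjusted p under 0.05 in edgeR's quasi-likelihood test (the lowest was 0.12, in 1 solution of ADAMTS4). In none of the 23 did every solution separate the seasons. ITGAM, ITGAV and TIMP3 had too many solutions to be tested.

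**Figure D3:**
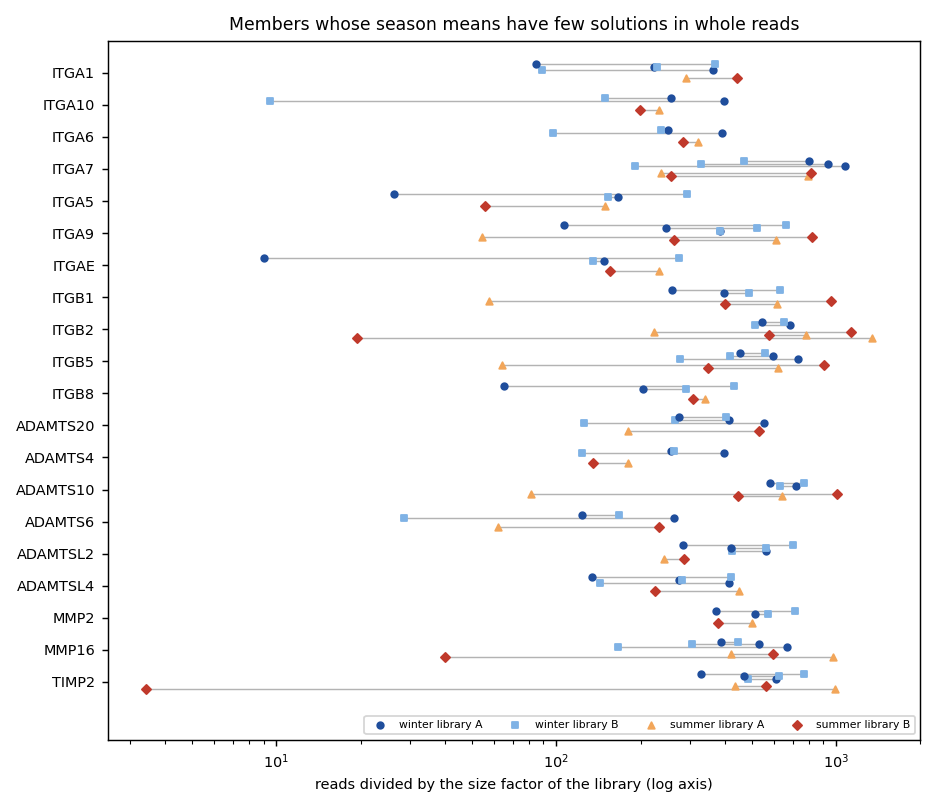
Normalised counts (horizontal axis, logarithmic) of the 20 genes whose season means have few solutions in whole reads, with each line joining the 2 libraries of a season in 1 solution and each symbol marking a library. The solutions put the winter pair entirely to one side of the summer pair in some cases only, for ADAMTS4, ADAMTSL2, ITGA1, ITGA5, ITGA6, ITGAE, ITGB8 and MMP2, and leave the seasons overlapping in every solution of the other genes.

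The recurring pattern in the genes with resolved reads was a gap between the summer libraries. Summer library B was the highest library in 22 of the 37 genes tested (59.5%), against 37.5% of all genes tested. Summer library A was the lowest in 19 (51.4%), against 38.0%. Summer library B exceeded summer library A by more than 2-fold in 17 of the 37 (45.9%), against 27.7% of all, while the reverse held for ADAMTS1 and ITGAL (5.41%, against 6.69% of all). Within winter, more than 2-fold gaps were seen in 5 genes (13.5%, against 10.9% of all) with winter library A higher and in 3 (8.11%, against 5.85%) with winter library B higher. The 37 genes thus had large summer gaps in a greater share than all genes tested, and winter gaps in a share closer to that of all genes, and no test was made of either comparison. ITGA4, ITGA8, ITGAX, ADAMTS5, MMP7, MMP13, MMP20 and MMP25 reached a mean of 10 in summer only. They thus entered these counts through the season in which they were high.

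Genes of like level were compared to allow for low counts. Among genes with a summer mean from 30 to 100, more than 70% of the summer level lay in summer library B in 8 of 15 (ADAMTS2, ADAMTS3, ADAMTS12, ADAMTS18, ADAMTS19, ADAMTSL3, ITGA2 and ITGBL1), that is 53.3%, against 17.8% of 3783 genes of the same range. Among those with a summer mean from 5 to 30, more than 90% lay in summer library B in 5 of 20 (MMP7, MMP11, MMP12, MMP13 and MMP20), that is 25%, against 20.3% of 3249 genes. All 5 were secreted MMPs, of which 6 lay in this range, and none of the 14 other genes of interest in the range exceeded 90%. With both limits in both ranges, more than 90% lay in summer library B in 2 of 15 genes of the higher range (13.3%, against 5.18% of all), and more than 70% in 9 of 20 of the lower range (45%, against 41.8%). None of these shares was tested.

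**Figure D4:**
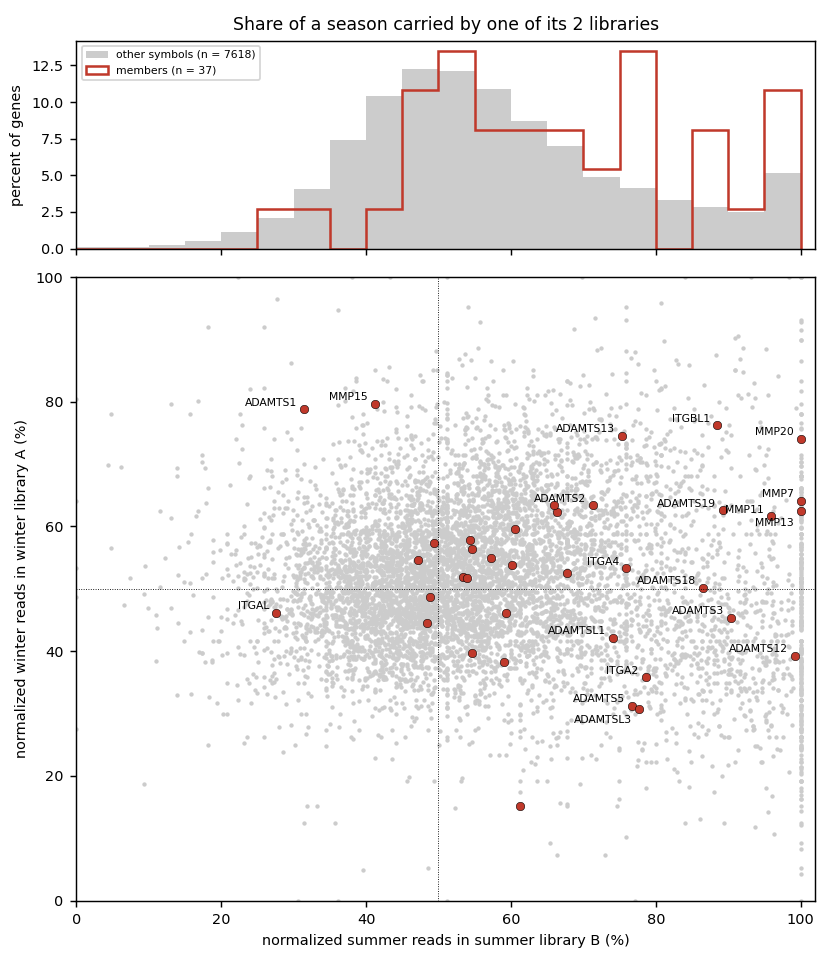
Each point is a gene tested, placed by the percent of its normalised summer reads in summer library B (horizontal axis) and of its normalised winter reads in winter library A (vertical axis), with the 37 genes of interest in red and the others in grey; the dotted lines mark equal shares. The upper panel gives the distribution of the summer share in percent of genes, and the red points extend to 100% on the summer axis but to no such extreme on the winter axis.

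The lean towards summer was lost without summer library B. That fit leaves summer library A alone, the library with no read for 14.9% of symbols. With all libraries, 10 of the 37 genes were higher in winter and the median log2 ratio (5 added to each mean) was -0.38, and 41.1% of all genes tested were higher in winter. Without summer library B, 27 of the 37 were higher in winter and the median was 0.37, against 58.0% of all genes. Without summer library A, 9 were higher in winter, with a median of -0.73. The numbers were 10 without winter library A and 14 without winter library B. The fitted log2 differences of ADAMTS3, ADAMTS12 and ADAMTS19 were -1.30, -1.60 and -1.28 without summer library A. Without summer library B they were 1.93, 5.26 (against 1 read) and 1.765, the opposite direction. ITGA4, ITGA8, ITGAX, ADAMTS5, MMP7, MMP13, MMP20 and MMP25 reached a mean of 10 in summer only, and MMP15 in winter only. These genes entered through the season in which they were high, so the counts by season are no evidence of an excess.

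**Figure D5:**
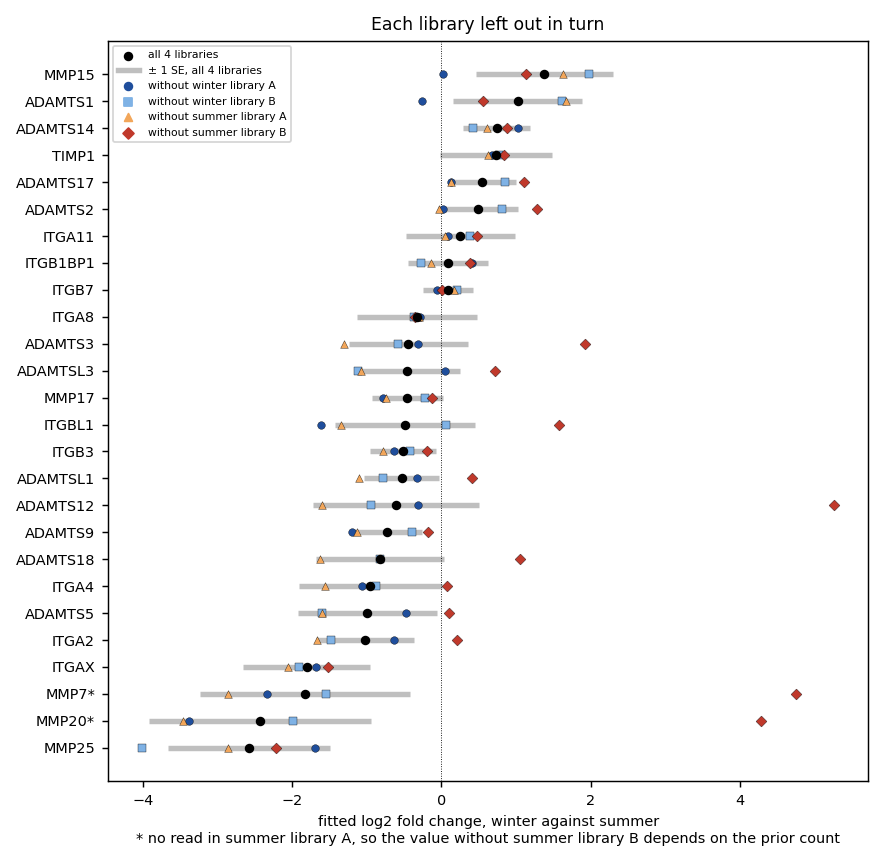
Fitted log2 fold change of winter against summer (horizontal axis) for the 26 named genes with resolved reads, in black with a bar of 1 standard error for all 4 libraries and as coloured symbols with each library left out in turn. In 15 of the 26 genes at least 1 symbol lies on the other side of 0, most often that without summer library B, whereas MMP25, ITGAX and TIMP1 stay on their side.

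Genes that work with these proteins were taken from lists, which were chosen with earlier results of these data known. Of 25 expressed components of the integrin adhesion complex, 17 were higher in winter and 8 in summer, with a median log2 ratio of 0.22, where 46.2% of the table was higher in winter. None of the 5 with resolved reads had an unadjusted p under 0.05. Of 21 expressed genes of pericellular proteolysis, such as the plasminogen system and the ADAM proteases, 13 were higher in winter and 8 in summer (median 0.13), and 0 of 9 tested reached an unadjusted p under 0.05 in edgeR's quasi-likelihood test. Of 25 expressed ligands and substrates, 13 were higher in winter and 12 in summer (median 0.03), and 2 of the 10 tested passed the threshold of the study, both higher in summer, beside the background of 1.67%. These were COL1A2, a chain of the collagen that ITGA1, ITGA2 and ITGA11 recognise, and VCAM1, a ligand of ITGA4. COL1A2 had 42.3 and 59.2 in winter and 115 and 88.9 in summer. COL1A1, the other chain of that collagen, did not share this difference. Its values were 67.2 and 25.4 in winter and 43.4 and 37.6 in summer, with overlapping seasons. VCAM1 had 97.3 and 64.5 in winter and 112 and 225 in summer. None of the genes tested passed after adjustment. The largest ratios of this list went the other way. HSPG2 had means of 405 in winter and 181 in summer (log2 ratio 1.16). FN1, the fibronectin gene, had means of 695 in winter and 323 in summer (1.11). Both were not resolved by library and so were not tested. Endothelial markers, which mark the vessels that carry many of these integrins, were higher in winter for 1 and in summer for 6 of 7 (median -0.30), and mural cell markers were split 3 to 3 (median -0.17). Astrocyte markers were higher in winter for 3 and in summer for 4 of 7 (median -0.65), and oligodendrocyte markers for 6 and 1 of 7 (median 0.27). The part of these cell types in the values of the integrins and proteases was not tested.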

How the data were processed

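Supraoptic nucleus RNA of 2 winter and 2 summer libraries was compared, with the season taken from the labels. The authors mapped reads with TopHat on an assembly they built, and tallied them with HTSeq. These deposited counts, raw and per unnamed gene model, were used for depth only, because the gene models carry no symbols and 1 of 4555 symbols with resolved reads matched a row of them. The authors' table of symbols gives a deposited signal, the mean per season of counts divided by DESeq size factors. It also holds edgeR fold changes and p-values of the authors, which were not used.

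Each mean was solved for the whole reads of its 2 libraries (single solution for 9899 of 16053 symbols). The reads replace the deposited counts that the planned test assumed. Single solutions favour low means. Genes whose mean reached 10 in either season were fitted with edgeR 4.0.16 (glmQLFit with legacy set to FALSE, glmQLFTest, size factors as offsets) in R 4.3.3 and adjusted by the Benjamini-Hochberg method over all genes tested. DESeq2 1.42.0, edgeR's exact test, other scalings, filters and fold thresholds, and each library left out were alternatives. The study gives 2 camels per season for RNA-seq, as many as the libraries, so p-values measure the spread between these few animals. The size factors of the libraries were 1.33 and 0.946 (winter A and B) and 0.922 and 0.877 (summer A and B).

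Named were every TIMP, every gene with an unadjusted p under 0.05, and in each role the 2 largest ratios to either side among genes whose mean reached 10. Other genes were named after their values were seen. The genes, lists and tests were chosen with earlier results of these data known. Symbols of 71 of the 72 genes were found in RefSeq (assembly mCamDro1.pat), which was used for gene order only. The scripts were tested on simulated data. Figures were drawn with matplotlib 3.10.9.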

Additional observations from a re-analysis of the deposited data

How the results depend on the processing

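The count of genes past the threshold of the study, 1 of 37 with all libraries, was 0 with edgeR's exact test, with DESeq2, with scaling by library totals and with a mean of at least 10 in both seasons, and ranged from 0 to 13 with a library left out. The count past an adjusted p of 0.05 was 0, and 0 to 5 with a library left out. With 1 library a season left, that library is assumed to vary like the other pair. The number of genes higher in winter, added after the data were seen, was 10, and 9 to 27 with a library left out. The fitted log2 difference changed sign for 15 of 26 named genes: ADAMTS1 (-0.26 to 1.66), ADAMTS2 (-0.036 to 1.28), ADAMTS3 (-1.30 to 1.93), ADAMTS5 (-1.60 to 0.10), ADAMTS12 (-1.60 to 5.26), ADAMTS18 (-1.62 to 1.05), ADAMTSL1 (-1.10 to 0.42), ADAMTSL3 (-1.12 to 0.71), ITGA2 (-1.67 to 0.20), ITGA4 (-1.56 to 0.072), ITGB1BP1 (-0.28 to 0.41), ITGB7 (-0.056 to 0.21), ITGBL1 (-1.61 to 1.58), MMP7 (-2.86 to 4.75) and MMP20 (-3.46 to 4.29). The last 2 have no read in summer library A, so their upper values depend on the prior count. For 11 named genes, MMP25 (-4.01 to -1.69) and ITGAX (-2.05 to -1.51) among them, no sign changed with a library left out, and no named gene changed sign under another tool, scaling or filter. The median log2 ratio of -0.24 lay between -0.23 and -0.18 under other filters, pseudocounts and member sets, and scaling moved the median fitted difference of all genes from -0.11 to -0.02 with 11 of the 37 genes above 0 under every scaling. The cause was not tested. No paired analysis was possible because the winter and summer libraries came from different animals, slaughtered at different times. Low reads, and means with several solutions, limit what these libraries can show.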
